A study of Mus musculus with 16 samples.

Results

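The genes described here encode subunits of respiratory complexes II to V, the complexes of oxidative phosphorylation other than complex I. They were taken by name from a list of subunits and comprise 37 of the 29806 gene rows, with 31 genes in the nucleus and 6 in mitochondrial DNA. Complex II had 4 nuclear genes, complex III had 9 nuclear genes and mt-Cytb, complex IV had 10 nuclear genes with mt-Co1, mt-Co2 and mt-Co3, and complex V had 8 nuclear genes with mt-Atp6 and mt-Atp8. All 37 passed the filter on low counts. RNA had been sequenced from 4 groups of cells sorted from mouse bone marrow, with 4 libraries each. They were haematopoietic stem cells (HSC) of genotype Jak2V617F, called mutant HSC, HSC of genotype WT, called control HSC, and Fcgr-negative MPP3, a myeloid-biased multipotent progenitor, of each genotype, called mutant MPP3 and control MPP3. Jak2V617F keeps the cytokine receptor kinase JAK2 active and drives myeloproliferative neoplasms. The sources used here do not give the promoter or Cre behind the allele, its zygosity, or the strain and age of the mice, and a gene-level count does not read the substitution. The replicate number is the batch in the labels. No label says that replicates were separate animals, so the p-values measure the spread between these libraries, which may be technical.

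Complex II oxidises succinate and passes the electrons to ubiquinone, complex III passes them to cytochrome c, complex IV passes them to oxygen, and complex V uses the proton gradient to make ATP. Complex II is encoded wholly in the nucleus, whereas the other complexes combine imported subunits with subunits translated inside the organelle. Mitochondrial messenger RNAs are cut from long precursor transcripts, so their production is separate from that of the nuclear messages. Stem cells at rest are known for relying largely on glycolysis and for raising mitochondrial respiration when they are activated or differentiate.

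Libraries held 33372210 to 41520158 estimated counts. In mutant HSC against control HSC, where 4.56% of all genes tested were called higher and 2.74% lower, 5 of 10 HSC markers fell (Mllt3 by 1.12 ± 0.13, adjusted p = 0.000163, on the log2 scale) and the summed HSC markers had 1263 to 1338 counts per 1000000 (CPM) in mutant HSC, against 2439.7 to 2518 CPM in control HSC, with no marker at 0. All 12 cycling genes rose, with sums of 3401 to 4409 CPM in mutant HSC against 2025 to 2356 CPM in control HSC. Of 5 megakaryocyte markers 2 rose (sums 819.8 to 1237 CPM in mutant HSC and 555 to 772 CPM in control HSC). Of 10 myeloid progenitor markers 1 rose and 1 fell (sums 207 to 407 CPM in mutant HSC and 412 to 464 CPM in control HSC). Of 4 tested stroma and endothelium markers 1 fell (sums 8.12 to 18.3 CPM in mutant HSC and 25.0 to 43.0 CPM in control HSC). None of 7 erythroid, 5 tested neutrophil, 4 tested B cell, 3 tested T and NK cell, 3 tested dendritic cell and macrophage markers or 11 tested immediate early genes passed, although all 11 immediate early genes were lower (sums 416 to 1812 CPM in mutant HSC and 1207 to 9312 CPM in control HSC). Erythroid sums were 2953 to 3589.8 CPM in mutant HSC and 3741 to 4453 CPM in control HSC. Neutrophil sums were 2.01 to 45.0 CPM in mutant HSC and 19.2 to 64.5 CPM in control HSC. T and NK cell sums were 1.09 to 10.4 CPM in mutant HSC and 9.34 to 16.5 CPM in control HSC, with Cd3e, Cd3g and Ncr1 at 0 in both HSC groups. B cell sums were at most 0.213 CPM in mutant HSC and 0.703 CPM in control HSC with Pax5 and Vpreb1 at 0 in both. Dendritic cell and macrophage sums were at most 0.332 CPM in mutant HSC and 1.99 CPM in control HSC, with Siglech and Itgax at 0 in both. These values stand beside every HSC result below. Their part in those results was not tested, and in sorted bulk samples a change in the mixture of cells and a change in RNA per cell cannot be told apart.

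Per unit of transcript length, in transcripts per 1000000 (TPM) averaged over 16 libraries, the 6 mitochondrial genes had the 6 highest levels of the 37. The order began with mt-Atp6 at 10687 TPM (8034 to 13542 over libraries), mt-Co3 at 9622 TPM (6408 to 12867) and mt-Co2 at 4825 TPM (3269.8 to 6796), followed by mt-Co1 at 2657 TPM and mt-Cytb at 2425 TPM. Next came mt-Atp8 at 1334 TPM and, among nuclear genes, Cox4i1, which encodes the largest nuclear subunit of complex IV, at 1247 TPM (1170.3 to 1344). The place of mt-Atp8, a gene of 204 bases, rests on the scaling by length. In control HSC it averaged 50.1 CPM, against 620 CPM for Cox4i1. Within mutant HSC alone mt-Atp8 averaged 966 TPM, below Cox4i1 at 1254 TPM and Cox6a1 at 1181 TPM. A nuclear copy of part of mt-Co1, Gm29216, described below, averaged 7702 TPM in control HSC, against 3385 TPM for mt-Co1. The level of mt-Co1 thus depends on how reads were split between them. Neighbours in the TPM order of the 37 overlapped in range over the libraries, except at the following places. All values of mt-Cytb (1931 to 3418) lay above all of mt-Atp8 (659 to 1827). All values of Sdhc (101 to 194) lay above all of Uqcrfs1 (26.0 to 54.1). The genes of complex II lay low, with Sdhb at 332 TPM (249.6 to 417), Sdhd at 303 TPM, Sdha at 288 TPM and Sdhc at 155 TPM. The nuclear genes of complex V lay close together, between 570.0 TPM for Atp5j and 831 TPM for Atp5b. In complex III, Uqcr11 had 831 TPM and Uqcrfs1, the gene of the Rieske iron-sulphur protein, had 38.0 TPM (26.0 to 54.1), the lowest level of the 37.

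**Figure D1:**
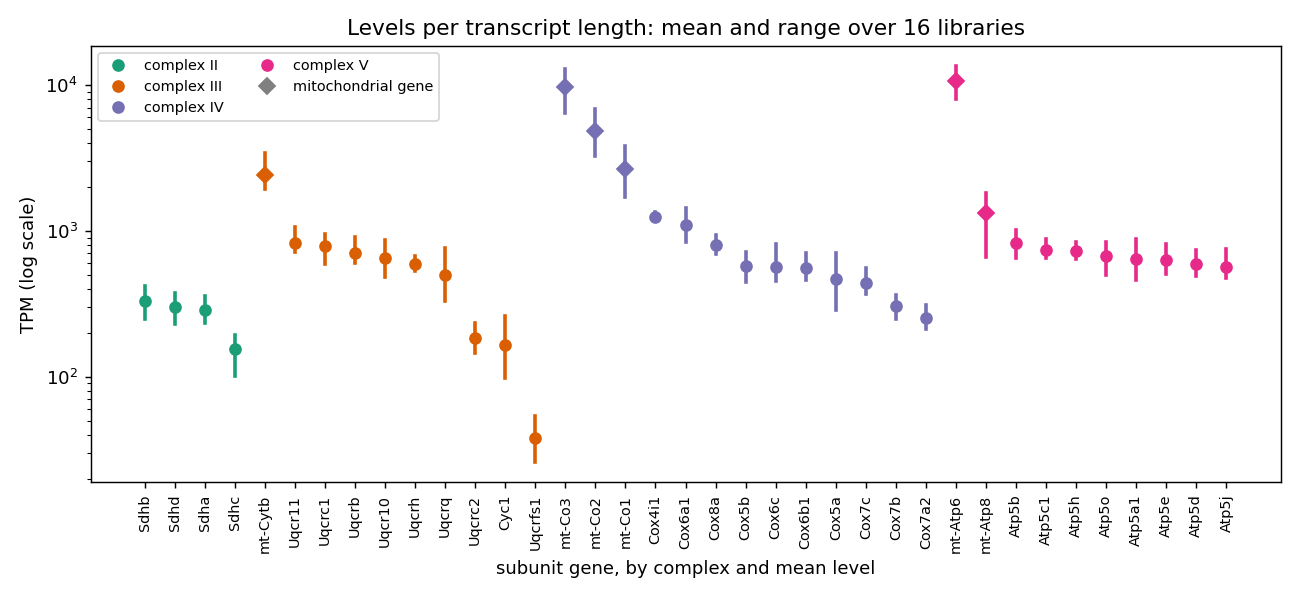
Mean level in TPM on a log axis for each subunit gene, ordered by complex, with vertical lines from the lowest to the highest of 16 libraries; diamonds are mitochondrial genes. The means of the mitochondrial genes sit at 1334 TPM or above, and Uqcrfs1 lies apart at 38.0 TPM. Levels are scaled by length, on which the place of the short gene mt-Atp8 rests.

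In mutant HSC against control HSC the genes that passed the test were higher when nuclear and lower when mitochondrial. Of 31 nuclear subunit genes, 12 rose, none fell and 19 did not pass, where a call is a Benjamini-Hochberg adjusted p under 0.05, over 14179 genes, from the quasi-likelihood test of edgeR. Over all genes tested the same call marked 4.56% as higher. Of the 6 mitochondrial genes, none rose and 3 fell (mt-Co1, mt-Cytb and mt-Atp6), where 2.74% of all genes were called lower. The log2 fold change was above 0 in 29 of 31 nuclear genes, with a median of 0.32, and below 0 in 6 of 6 mitochondrial genes, with a median of -0.53, beside a median of -0.06 over all genes tested. The sign turned under at least 1 alternative for Uqcrfs1, Uqcrh and Cox4i1 only. Groups did not overlap in 19 nuclear genes, all higher in mutant HSC (7.26% of all genes did so), and in mt-Co1 and mt-Atp6, both lower (7.60% of all genes). Within batches, 24 of 31 nuclear genes were higher in mutant HSC in 4 of 4 batches (14.0% of all genes), and all 6 mitochondrial genes were lower in 4 of 4 (16.6% of all genes).

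**Figure D2:**
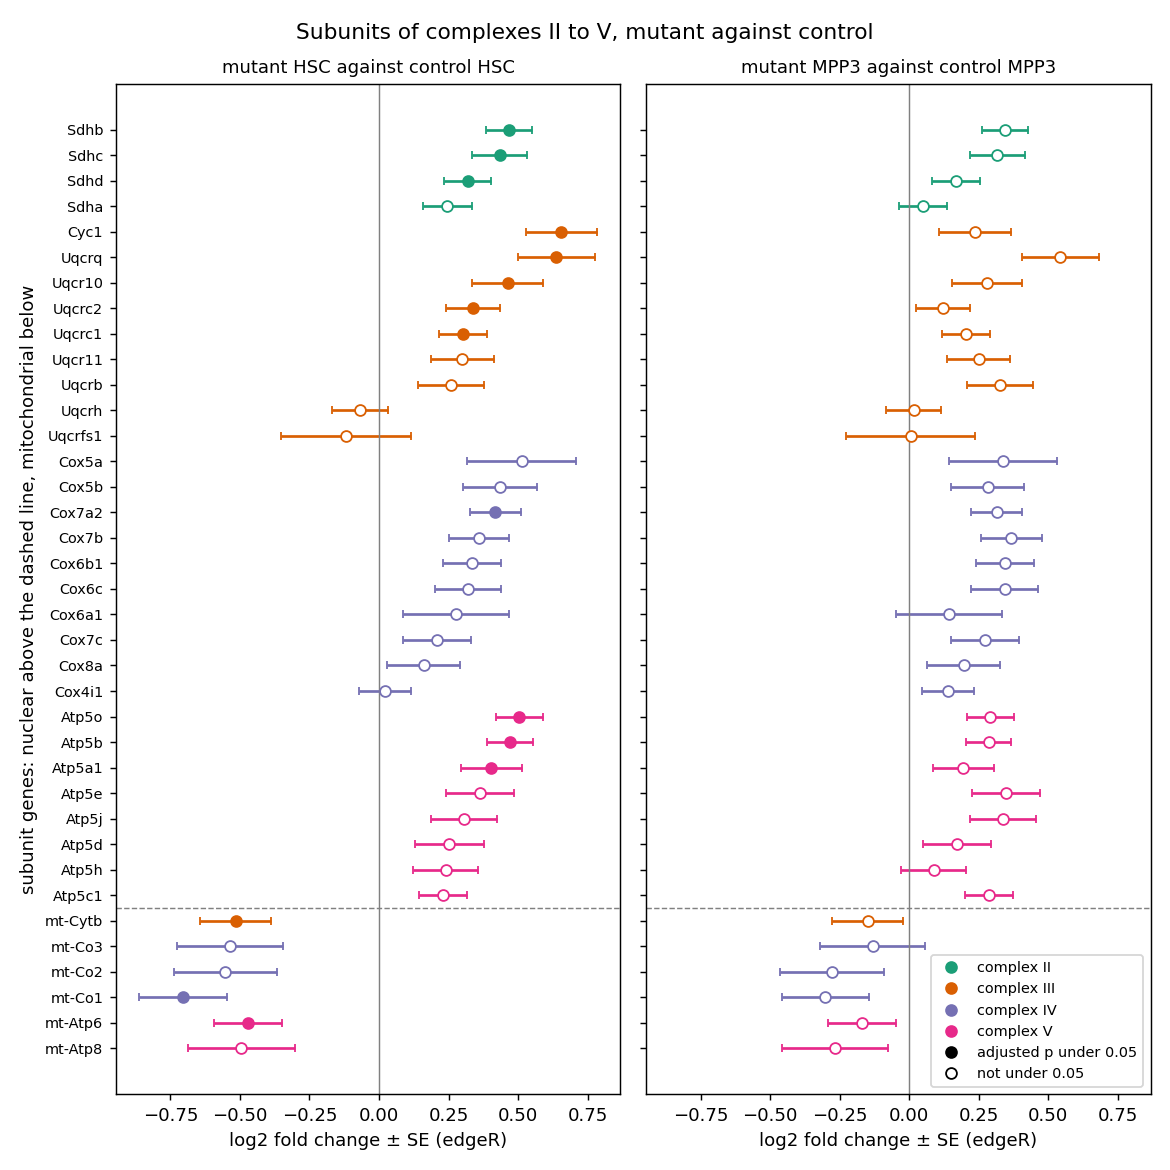
Log2 fold change ± SE from edgeR for each subunit gene, mutant HSC against control HSC on the left and mutant MPP3 against control MPP3 on the right; filled points have an adjusted p under 0.05. On the left 12 nuclear genes and 3 mitochondrial genes are filled on opposite sides of 0, and on the right none is filled.

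With the batch as a block, a fit that compares libraries of the same batch, 17 nuclear genes were called higher (5.77% of all genes) and 5 mitochondrial genes lower (4.06%). The added nuclear genes were Sdha (adjusted p = 0.0414), Cox5a (0.0152), Cox7b (0.0281), Atp5e (0.0449) and Cox5b (0.0468), and the added mitochondrial genes were mt-Co2 (0.0143) and mt-Co3 (0.0384). DESeq2 called 18 nuclear genes higher (8.58% of the 11684 genes to which it gave an adjusted p) and 5 mitochondrial genes lower (5.75% of these genes). The calls leaned on single libraries. Without mutant HSC replicate 4, 8 nuclear and 0 mitochondrial genes were called, where 4.29% of all genes were called in either direction. Without mutant HSC replicate 1 there were 8 and 1 (4.18% of all genes), without control HSC replicate 2 there were 7 and 1 (4.38%), and without mutant HSC replicates 1 and 4 together there were 4 and 0 (1.77%). The 4 genes called under all 26 alternative settings were Sdhb, Cox7a2, Atp5b and Atp5o.

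Complex II, succinate dehydrogenase, had 3 of 4 genes called higher. Sdhb (chr4:140961203-140979193 on GRCm38, forward strand), which encodes the iron-sulphur subunit, had 281, 313, 274 and 315 CPM in the mutant HSC libraries, against 236, 206, 210.2 and 202 CPM in the control HSC libraries. Every mutant HSC library lay above every control HSC library, and the log2 fold change was 0.47 ± 0.08, adjusted p = 0.00276. Sdhc, which encodes a membrane anchor, had 169, 139, 152 and 170.2 CPM in the mutant HSC libraries, against 136, 100.4, 112 and 118 CPM in the control HSC libraries, and again the groups did not overlap (0.43 ± 0.10, adjusted p = 0.0128, but 0.204 without mutant HSC replicates 1 and 4). The other anchor gene, Sdhd, rose by 0.32 ± 0.09, adjusted p = 0.0319, and its call was lost without control HSC replicate 2, 3 or 4 or mutant HSC replicate 1 or 2 (adjusted p 0.0599 to 0.0939). Without mutant HSC replicates 1 and 4 together it was lost as well (0.138). Sdha, the flavoprotein that oxidises succinate, did not pass, at 0.25 ± 0.09, adjusted p = 0.10. It had 734, 615, 666 and 762 CPM in the mutant HSC libraries, against 607, 568, 593 and 575 CPM in the control HSC libraries, so the groups did not overlap for this gene either, with mutant HSC replicates 1 and 4 the highest.

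Complex III, the cytochrome bc1 complex, had 5 of 9 nuclear genes called higher and included the largest rises of any nuclear member. Cyc1, which encodes cytochrome c1, had 207, 166, 139 and 165 CPM in the mutant HSC libraries, against 114, 84.6, 119 and 111 CPM in the control HSC libraries. The groups did not overlap, mutant HSC replicate 1 was the highest library, and the log2 fold change was 0.66 ± 0.13, adjusted p = 0.00532 (0.0975 without mutant HSC replicates 1 and 4). Uqcrq, a small subunit of the complex, had 128, 143, 116 and 133 CPM in the mutant HSC libraries, against 98.7, 78.9, 79.7 and 77.1 CPM in the control HSC libraries. Control HSC replicate 1 stood above the other control HSC libraries and still below all mutant HSC libraries, and the log2 fold change was 0.64 ± 0.14, adjusted p = 0.00967 (0.0934 without mutant HSC replicates 1 and 4).

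Uqcr10, another small subunit, rose by 0.46 ± 0.13, adjusted p = 0.0341, and the core proteins Uqcrc1 and Uqcrc2 rose by 0.30 ± 0.09, adjusted p = 0.0428 and by 0.34 ± 0.10, adjusted p = 0.0453. These calls were close to the threshold. That of Uqcr10 was lost without control HSC replicate 2 or 4 or mutant HSC replicate 1, 2 or 4 (adjusted p 0.0540 to 0.104), and that of Uqcrc1 without control HSC replicate 2 or 4, mutant HSC replicate 4 or control MPP3 replicate 4 (0.0525 to 0.120). Uqcrc2 lost its call when any 1 of 8 libraries was left out, namely control HSC replicates 2, 3 and 4, mutant HSC replicates 1, 3 and 4 and control MPP3 replicates 3 and 4 (0.0510 to 0.145). In a fit of the HSC groups alone Uqcrc1 and Uqcrc2 lost theirs too (0.0780 and 0.0867). Without mutant HSC replicates 1 and 4 together the adjusted p was 0.120 for Uqcr10, 0.112 for Uqcrc1 and 0.294 for Uqcrc2. Reads of Uqcr10 may be shared with 4930481A15Rik, which matches it over 191 bases and held counts equal to 6.97% of those of Uqcr10.

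The remaining complex III genes did not pass. Uqcr11, the most abundant of the nuclear complex III genes in TPM, had 188, 224, 207 and 205 CPM in the mutant HSC libraries, against 178, 165, 176 and 150.0 CPM in the control HSC libraries, without overlap between groups (0.30 ± 0.11, adjusted p = 0.123), and Uqcrb was at 0.26 ± 0.12, adjusted p = 0.212. The only nuclear members with a log2 fold change below 0 were Uqcrfs1 and Uqcrh, the gene of the acidic hinge protein (-0.07 ± 0.10, adjusted p = 0.776). Uqcrfs1 had 27.9, 30.8, 28.1 and 21.9 CPM in the mutant HSC libraries, against 43.8, 33.3, 21.9 and 19.0 CPM in the control HSC libraries. The control HSC libraries of Uqcrfs1 spanned the whole range of the mutant HSC libraries, and the difference was -0.12 ± 0.23, adjusted p = 0.847.

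In complex IV, cytochrome c oxidase, 1 of 10 nuclear genes was called higher. This was Cox7a2 (chr9:79755361-79759878, reverse strand), the widely expressed form of subunit VIIa, with 123, 134, 128 and 118 CPM in the mutant HSC libraries, against 96.2, 96.9, 93.8 and 89.9 CPM in the control HSC libraries. The groups were far apart relative to their spread, at 0.42 ± 0.09, adjusted p = 0.0107, with 0.000383 to 0.0468 over the alternatives. Cox7b, a small subunit, had 135, 141, 142 and 137 CPM in the mutant HSC libraries, against 126, 106, 107 and 94.5 CPM in the control HSC libraries. Its groups did not overlap, and it did not pass at 0.36 ± 0.11, adjusted p = 0.0539, whereas with the batch as a block it did. Cox4i1 had 581, 607, 743 and 587 CPM in the mutant HSC libraries, against 617, 662, 649 and 551 CPM in the control HSC libraries. Mutant HSC replicate 3 was the highest of these libraries and the other mutant HSC libraries lay among the control HSC libraries, and the log2 fold change was 0.02 ± 0.09, adjusted p = 0.937, below 0 without mutant HSC replicate 3 (-0.0335) or control HSC replicate 4 (-0.0305).

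The other complex IV genes ranged between 0.16 ± 0.13 for Cox8a and 0.51 ± 0.19 for Cox5a, which stands next to Cox4i1 in the assembled enzyme. Cox5b (0.43 ± 0.13, adjusted p = 0.0548) and Cox6b1 (0.33 ± 0.10, adjusted p = 0.0636) lay just outside the threshold, without overlap between the groups. Cox6c and Cox7c were at 0.32 ± 0.12, adjusted p = 0.117 and at 0.21 ± 0.12, adjusted p = 0.347. Cox6a1 had 255, 383, 479 and 315 CPM in the mutant HSC libraries, against 322, 307, 299.7 and 252 CPM in the control HSC libraries, and mutant HSC replicates 1 and 4 lay within the control HSC libraries (0.28 ± 0.19, adjusted p = 0.446). By gene span, introns included, genes on the opposite strand overlap 9 of the 37 members. Without a stated strand protocol, reads from any exons they share cannot be told apart. The partner held counts, over its whole gene, above 10% of the member's for 3 of them, with Vps13b at 24.8% of Cox6c, Gabpa at 18.8% of Atp5j and Emc8 at 14.9% of Cox4i1. Of these 3, a match of at least 150 bases to a transcript of the partner was found only for Cox4i1 with Emc8 (154 bases).

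Complex V, the ATP synthase, had 3 of 8 nuclear genes called higher. Atp5o (chr16:91925214-91931687, reverse strand) encodes the subunit that joins the peripheral stalk to the catalytic head. It had 422, 426, 393 and 456 CPM in the mutant HSC libraries, against 301, 301, 320.2 and 274 CPM in the control HSC libraries. The groups did not overlap, and the log2 fold change was 0.50 ± 0.08, adjusted p = 0.00185, the smallest adjusted p of the 37 genes, with 3.46e-07 to 0.0385 over the alternatives. Atp5b (chr10:128083273-128090391, forward strand), the catalytic beta subunit, had 1285, 1188, 1249.7 and 1257 CPM in the mutant HSC libraries, against 956, 863, 928 and 846 CPM in the control HSC libraries. Its libraries were tightly grouped on either side of a gap, at 0.47 ± 0.08, adjusted p = 0.00258, with 1.16e-06 to 0.0412 over the alternatives. Atp5a1, the alpha subunit, rose by 0.40 ± 0.11, adjusted p = 0.0342, and lost its call without control HSC replicate 1 or 2 or mutant HSC replicate 1 or 4 (adjusted p 0.0585 to 0.112). It was also lost in a fit of the HSC groups alone (0.0574) and without mutant HSC replicates 1 and 4 together (0.342).

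Atp5d, the delta subunit of the central stalk, was the complex V gene with the largest p. It had 319, 377, 511 and 378 CPM in the mutant HSC libraries, against 356, 303, 352 and 319.5 CPM in the control HSC libraries, and mutant HSC replicate 3 stood above the rest while mutant HSC replicate 1 lay among the control HSC libraries (0.25 ± 0.12, adjusted p = 0.245). Atp5e and Atp5c1, the other central stalk genes, were at 0.36 ± 0.12, adjusted p = 0.0825 and at 0.23 ± 0.09, adjusted p = 0.125. The peripheral stalk genes Atp5j and Atp5h were at 0.31 ± 0.12, adjusted p = 0.131 and at 0.24 ± 0.12, adjusted p = 0.243.

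Promoter sequence was at hand for 23 of the 31 nuclear genes from RefSeq (GRCm38.p6), and the 250 bases before each start were searched on both strands for letters known from promoters of respiratory genes. The CCAAT box, which binds NF-Y, was present in 12 of 23 members (52.2%) and in 37.5% of 27025 genes. It was in 3 of the 7 of these members called higher in mutant HSC and in 9 of the other 16. CCGGAAG, the core of sites for ETS factors such as GABP, was in 8 of 23 members (34.8%) against 7.83% of all genes, and in 1 of the 7 called members. GCATGCGC, the core of NRF1 sites, was in 2 of 23 members (8.70%) against 2.56% of all genes. None of the 3 motifs contains another, and a match is a description of the sequence only. The stretches before Atp5b, Uqcr10 and Atp5o are shown because these genes rose together in mutant HSC and differ in CCAAT boxes, which are in capitals on either strand (5, 1 and 0 matches). Each runs 5′ to 3′ on the strand of its gene and stops before the annotated transcript, at chr10:128083057-128083272, chr11:4704345-4704594 and chr16:91931688-91931880.
Atp5b: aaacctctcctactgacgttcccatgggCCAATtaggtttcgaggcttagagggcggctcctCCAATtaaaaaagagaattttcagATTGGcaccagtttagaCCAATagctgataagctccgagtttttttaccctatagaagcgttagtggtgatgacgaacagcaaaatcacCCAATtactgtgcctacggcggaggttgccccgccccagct
Uqcr10: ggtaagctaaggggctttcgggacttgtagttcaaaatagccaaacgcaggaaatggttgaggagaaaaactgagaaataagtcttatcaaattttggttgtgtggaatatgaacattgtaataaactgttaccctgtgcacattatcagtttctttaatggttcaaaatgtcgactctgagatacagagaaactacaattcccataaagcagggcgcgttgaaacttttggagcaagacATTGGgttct
Atp5o: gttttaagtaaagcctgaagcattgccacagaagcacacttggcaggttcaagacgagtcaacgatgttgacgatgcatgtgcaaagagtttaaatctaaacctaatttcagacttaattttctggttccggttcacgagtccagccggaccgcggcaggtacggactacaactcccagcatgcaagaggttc

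All 6 mitochondrial genes lie on the same strand of the circular chromosome and were lower in mutant HSC in every batch. mt-Cytb (chrM:14145-15288), cytochrome b of complex III, had 1343, 1506, 1344 and 1133 CPM in the mutant HSC libraries, against 2294, 2009, 1814 and 1492 CPM in the control HSC libraries. Mutant HSC replicate 2 was slightly above control HSC replicate 4, so the groups touched, and the log2 fold change was -0.51 ± 0.13, adjusted p = 0.0206. mt-Co1 (chrM:5328-6872), which holds the oxygen-reducing centre of complex IV, had 1769, 2075, 2218 and 1409.9 CPM in the mutant HSC libraries, against 3564, 3333, 2883 and 2404 CPM in the control HSC libraries. The groups did not overlap, and at -0.71 ± 0.16, adjusted p = 0.0118 it was the largest fall among the 37 genes.

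mt-Co2, the subunit that receives electrons from cytochrome c, had 1329, 1576, 1633 and 996 CPM in the mutant HSC libraries, against 2387, 2246, 1916 and 1564 CPM in the control HSC libraries. Mutant HSC replicates 2 and 3 were slightly above control HSC replicate 4, and the change did not pass (-0.55 ± 0.19, adjusted p = 0.0835). mt-Co3, the remaining core subunit, had 2703, 3593, 4734 and 2468 CPM in the mutant HSC libraries, against 5575, 5394, 4821 and 3779 CPM in the control HSC libraries. Mutant HSC replicate 3 lay above control HSC replicate 4, and the change did not pass either (-0.54 ± 0.19, adjusted p = 0.10), although without that library it did (0.0174).

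The ATP synthase genes mt-Atp8 and mt-Atp6 are read from overlapping frames of a shared messenger RNA. mt-Atp6 (chrM:7927-8607), the subunit through which protons pass, had 2551, 2833, 2560.1 and 1986 CPM in the mutant HSC libraries, against 3951, 3721, 3166 and 2935 CPM in the control HSC libraries. The groups did not overlap, at -0.47 ± 0.12, adjusted p = 0.0262. mt-Atp8 (chrM:7766-7969) had 46.2, 43.0, 26.6 and 26.5 CPM in the mutant HSC libraries, against 61.8, 53.7, 37.5 and 47.4 CPM in the control HSC libraries. Mutant HSC replicates 3 and 4 were the lowest of the 8 and replicates 1 and 2 lay among the control HSC libraries, and it did not pass (-0.49 ± 0.19, adjusted p = 0.133). The last 43 bases of mt-Atp8 are also the first of mt-Atp6, in capitals in the GENCODE M21 transcript below, and reads that lie within them cannot be assigned to either gene. mt-Atp8 held 1.60% as many counts as mt-Atp6, and mt-Co3 shares a single base with mt-Atp6.
mt-Atp8: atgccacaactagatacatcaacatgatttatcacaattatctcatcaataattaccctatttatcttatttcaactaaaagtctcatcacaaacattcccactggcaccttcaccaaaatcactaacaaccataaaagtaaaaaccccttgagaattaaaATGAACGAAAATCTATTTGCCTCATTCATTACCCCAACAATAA

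The 3 calls rested on few libraries. mt-Cytb and mt-Atp6 lost theirs without control HSC replicate 1 or 2 or mutant HSC replicate 1 or 4 (adjusted p 0.0519 to 0.101 for mt-Cytb and 0.0568 to 0.118 for mt-Atp6), and in a fit of the HSC groups alone (0.0619 and 0.0736). mt-Co1 lost its call without mutant HSC replicate 4 (0.0512), and all 3 lost theirs without mutant HSC replicates 1 and 4 together. Replicate 4 had the lowest summed mitochondrial level in each of the 4 groups.

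A nuclear copy of part of mt-Co1 also held counts. Gm29216 (chr1:24615706-24616197, reverse strand) is an annotated pseudogene of 492 bases whose sequence matches the last 483 bases of mt-Co1 with 1 substitution, A1066T, counted from the first base of mt-Co1. The first 41 shared bases, which hold the substitution, are shown from both GENCODE M21 transcripts with the differing base in capitals, since it is the only base in the shared stretch that separates them.
mt-Co1: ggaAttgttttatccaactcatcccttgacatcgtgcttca
Gm29216: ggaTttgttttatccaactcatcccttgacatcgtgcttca
Gm29216 held counts equal to 52.2% of those of mt-Co1, and its fall in mutant HSC was -0.87 ± 0.15, adjusted p = 0.00248. It had 979, 892, 1160.2 and 744 CPM in the mutant HSC libraries, against 1832, 1921, 1714 and 1434 CPM in the control HSC libraries, without overlap between groups. With its counts added to those of mt-Co1 the fall was -0.76 ± 0.15 with an adjusted p of 0.00516. Other close copies of mt-Co2, mt-Co3 and mt-Atp6 held at most 0.0418% of their counts. Among these, Gm28661, Gm28437 and Gm10925 match the 3 genes at 100% over 681, 783 and 678 bases and were assigned 0 counts. Reads within these identical stretches cannot be told apart by sequence, so the 0 does not measure the copies.

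Summed over genes, the nuclear subunits had 10566, 10602, 11256 and 10717 CPM in the mutant HSC libraries, against 9029, 8301, 8900.2 and 8236 CPM in the control HSC libraries. The mitochondrial subunits had 9741, 11626, 12515 and 8019 CPM in the mutant HSC libraries, against 17833, 16758, 14638 and 12221 CPM in the control HSC libraries. The nuclear sums did not overlap, while mutant HSC replicate 3 had a higher mitochondrial sum than control HSC replicate 4. The ratio of the mitochondrial to the nuclear sum, which does not depend on library scaling, was 0.922, 1.10, 1.11 and 0.748 in mutant HSC, against 1.98, 2.02, 1.64 and 1.48 in control HSC. It did not overlap between the groups and was lower in mutant HSC in 4 of 4 batches. By complex, nuclear sums differed on the log2 scale by 0.32 for complex II, 0.31 for complex III, 0.23 for complex IV and 0.38 for complex V, and only the sums of complex IV overlapped between mutant HSC and control HSC. Genes with many counts weigh most in such sums. The median log2 fold change over the nuclear genes was 0.38, 0.30, 0.33 and 0.33 in the same order of complexes. No test was made of these sums.

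**Figure D3:**
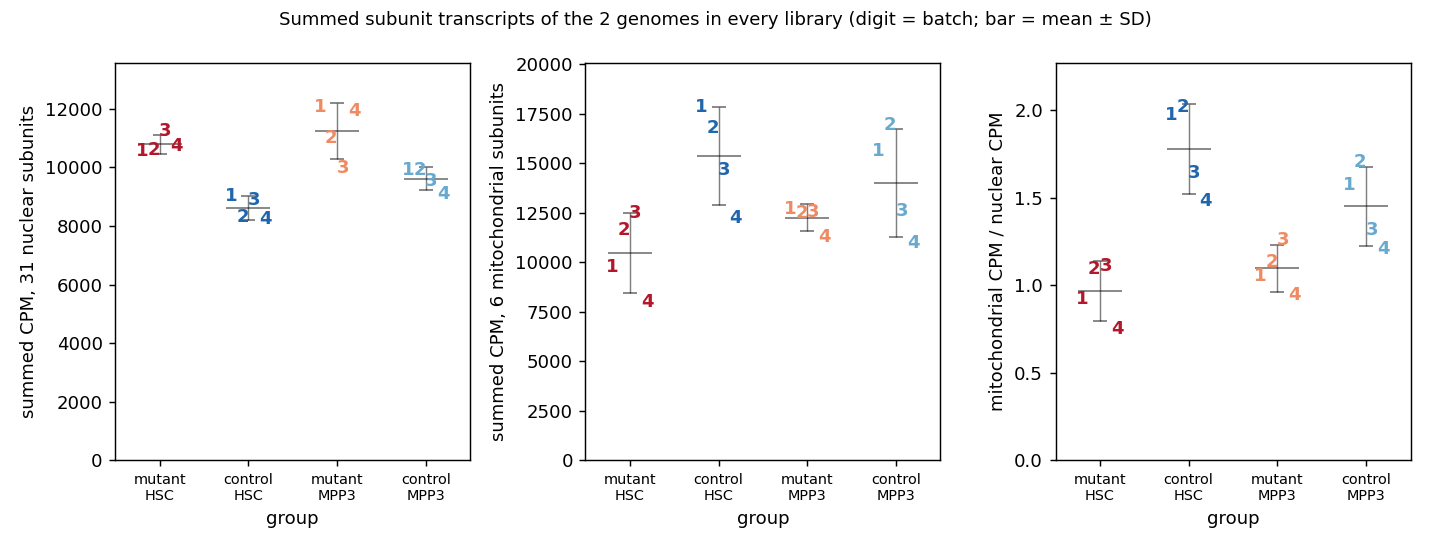
Summed CPM of the 31 nuclear and the 6 mitochondrial subunit genes and their ratio in each of 16 libraries, by group; digits are batches and bars are mean ± SD. The ratio in mutant HSC runs from 0.748 to 1.11, below all control HSC libraries, which run from 1.48 to 2.02.

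In mutant MPP3 against control MPP3 no member was called by edgeR, where 0.0635% of all genes were. All 31 nuclear genes had a log2 fold change above 0 (median 0.28) and all 6 mitochondrial genes one below 0 (median -0.22), beside -0.02 over all genes tested, but the sign turned under at least 1 alternative for Uqcrfs1, Uqcrh and mt-Co3. An unadjusted p under 0.05 was reached by 18 nuclear and 0 mitochondrial genes (13.8% of all genes). DESeq2 called 6 nuclear genes higher, namely Sdhb, Uqcrq, Atp5b, Atp5o, Cox7a2 and Atp5c1 (1.2% of 13600 genes with an adjusted p). With the batch as a block 0 members were called (0.578% of all genes). Within batches 20 of 31 nuclear genes were higher in mutant MPP3 in 4 of 4 batches (10.1% of all genes) and 2 mitochondrial genes, mt-Atp6 and mt-Atp8, were lower in 4 of 4 (10.8%).

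Sdhb had the smallest p of the members, with 356, 326, 305 and 334 CPM in the mutant MPP3 libraries, against 279, 242, 264 and 256 CPM in the control MPP3 libraries. The groups did not overlap, and the log2 fold change was 0.34 ± 0.08, adjusted p = 0.113. Uqcrq had the largest difference, with 183, 153, 107 and 163 CPM in the mutant MPP3 libraries, against 103, 115, 96.3 and 101 CPM in the control MPP3 libraries. Mutant MPP3 replicate 3 lay within the control MPP3 libraries (0.54 ± 0.14, adjusted p = 0.119). Atp5o had 504, 431, 403 and 483 CPM in the mutant MPP3 libraries, against 353, 377, 379.8 and 379 CPM in the control MPP3 libraries (0.29 ± 0.08, adjusted p = 0.150), and Atp5b had 1414, 1310.2, 1146 and 1489 CPM in the mutant MPP3 libraries, against 1140.2, 1115, 1121 and 1022 CPM in the control MPP3 libraries (0.28 ± 0.08, adjusted p = 0.150), in both cases without overlap. mt-Co1 had 2151, 2283, 2556 and 1979 CPM in the mutant MPP3 libraries, against 3072, 3337, 2398 and 2245 CPM in the control MPP3 libraries, with overlap (-0.30 ± 0.16, adjusted p = 0.421). Without mutant MPP3 replicate 3, 8 nuclear genes were called higher (0.744% of all genes), namely Sdhb, Uqcrq, Cox7a2, Cox7b, Cox6b1, Atp5b, Atp5c1 and Atp5o, with adjusted p between 0.0103 for Uqcrq and 0.0491 for Atp5c1.

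The nuclear sums in MPP3 were 12057, 11007, 9990.4 and 11943 CPM in mutant MPP3, against 9928, 9921, 9534 and 9084 CPM in control MPP3, without overlap. The mitochondrial sums were 12694, 12511, 12556 and 11268 CPM in mutant MPP3 and 15629.9, 16915, 12573 and 10977 CPM in control MPP3, so the mutant MPP3 libraries lay inside the range of the control MPP3 libraries. The ratio of mitochondrial to nuclear sums was 1.05, 1.14, 1.26 and 0.943 in mutant MPP3, against 1.57, 1.70, 1.32 and 1.21 in control MPP3. It was lower in mutant MPP3 in 4 of 4 batches, and mutant MPP3 replicate 3 overlapped control MPP3 replicate 4. Cycling genes had sums of 3988 to 4833 CPM in mutant MPP3 and 3297 to 3866 CPM in control MPP3, and HSC markers 484 to 704 CPM in mutant MPP3 and 696 to 904 CPM in control MPP3. Gene by gene, 6 of the 10 HSC markers had a log2 fold change above 0 and 4 one below 0, with a median of 0.14. Only 1 HSC marker was called, as lower (0.0494% of all genes were called lower). Erythroid markers had 1339 to 2594 CPM in mutant MPP3 and 2509 to 3476 CPM in control MPP3, and B cell markers 6.98 to 34.2 CPM in mutant MPP3 and 25.6 to 107 CPM in control MPP3. All 11 tested immediate early genes were lower in mutant MPP3, and none passed. Immediate early sums were 363 to 1201 CPM in mutant MPP3 and 553 to 5837 CPM in control MPP3. Stroma and endothelium sums were 6.90 to 13.0 CPM in mutant MPP3 and 13.5 to 23.4 CPM in control MPP3. Myeloid progenitor, neutrophil, T and NK cell, megakaryocyte, and dendritic cell and macrophage sums overlapped between the groups. Their part in these values was not tested.

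Whether the mutant effect in MPP3 differed from that in HSC was tested directly, and no member passed (0.0423% of all genes did). An unadjusted p under 0.05 was reached by 1 member, Cyc1, whose effect was smaller in MPP3 by 0.42 ± 0.18 on the log2 scale (adjusted p = 0.661), where 6.93% of all genes reached it. DESeq2 called 0 members as well (0.544% of 14146 genes with an adjusted p), as did edgeR with the batch as a block (0.00705% of all genes). The 6 mitochondrial genes had differences between 0.23 and 0.40, all in the direction of a smaller fall in MPP3, with SE between 0.17 and 0.27 and adjusted p from 0.741 upward. The calls in HSC and their absence in MPP3 therefore do not show that the mutant effect differed between the cell types.

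Between the cell types, control MPP3 against control HSC had 4 nuclear members called higher and none lower (6.67% of all genes were called higher and 6.91% lower). These were Sdhb (0.28 ± 0.08, adjusted p = 0.0291), Sdhd (0.29 ± 0.09, adjusted p = 0.0331), Atp5b (0.29 ± 0.08, adjusted p = 0.0257) and Atp5o (0.32 ± 0.08, adjusted p = 0.0192). Atp5b had 1140.2, 1115, 1121 and 1022 CPM in the control MPP3 libraries, against 956, 863, 928 and 846 CPM in the control HSC libraries, without overlap. Atp5o had 353, 377, 379.8 and 379 CPM in the control MPP3 libraries, against 301, 301, 320.2 and 274 CPM in the control HSC libraries, also without overlap. With the batch as a block 7 were called, with Sdhc, Cox5a and Uqcrc1 added (adjusted p = 0.0228, 0.0318 and 0.0488, 7.98% of all genes higher). Single libraries decided these calls, since 0 members passed without control MPP3 replicate 3 (9.90% of all genes in either direction) or control HSC replicate 4 (10.6%). There was 1 without control MPP3 replicate 1 (11.1%), control MPP3 replicate 2 (10.2%) or control HSC replicate 2 (9.65%), and there were 2 without control HSC replicate 3 (10.4%). Without mutant HSC replicate 3, which belongs to neither group, 7 passed (15.1%). In control MPP3 against control HSC all 12 cycling genes were called higher (median 0.72). All 10 HSC markers and all 5 megakaryocyte markers were called lower. All 10 myeloid progenitor markers and all 4 tested B cell markers were called higher. Of 7 erythroid markers 1 was called higher and 1 lower. What these differences contribute to the subunit genes was not tested.

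The largest nuclear differences in controls were those of Cox5a (0.43 ± 0.19, adjusted p = 0.167) and Cyc1 (0.34 ± 0.13, adjusted p = 0.0963), and the lowest were those of Uqcrh (-0.11 ± 0.10, adjusted p = 0.553) and Cox4i1 (-0.07 ± 0.09, adjusted p = 0.721), none of which passed. Cox5a had 196, 212, 145 and 129 CPM in the control MPP3 libraries, against 170.1, 119, 118 and 98.0 CPM in the control HSC libraries, and control HSC replicate 1 lay among the control MPP3 libraries. No mitochondrial member was called in controls, and their log2 fold changes ran from -0.20 for mt-Co3 to 0.31 for mt-Atp8.

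In mutant MPP3 against mutant HSC no member was called by edgeR (8.36% of all genes were) or by DESeq2 (11.5% of 14146 genes with an adjusted p). In edgeR 2 members, mt-Atp6 and mt-Atp8, had an unadjusted p under 0.05 (20.4% of all genes did). mt-Atp8 had 57.2, 48.9, 53.6 and 47.2 CPM in the mutant MPP3 libraries, against 46.2, 43.0, 26.6 and 26.5 CPM in the mutant HSC libraries, without overlap, at 0.54 ± 0.19, adjusted p = 0.102. mt-Atp6 had 3308, 3164, 3070.3 and 2742 CPM in the mutant MPP3 libraries, against 2551, 2833, 2560.1 and 1986 CPM in the mutant HSC libraries, with overlap, at 0.31 ± 0.12, adjusted p = 0.153. With the batch as a block both were called higher in mutant MPP3 (adjusted p = 0.0321 for mt-Atp8 and 0.0108 for mt-Atp6, 4.39% of all genes higher). Among nuclear genes the differences were small, from -0.11 ± 0.09 for Sdha and -0.08 ± 0.13 for Cyc1 to 0.24 ± 0.12 for Cox6c and 0.25 ± 0.19 for Cox5a. In the same comparison 7 of 10 HSC markers, all 5 megakaryocyte markers and 2 of 7 erythroid markers were called lower (4.68% of all genes). All 10 myeloid progenitor, all 4 tested B cell and 1 of 3 tested dendritic cell and macrophage markers were called higher (3.69%). Of 12 cycling genes 0 were called (median 0.03). The part of these markers in the subunit values was not tested. The comparisons of mutant with control and of MPP3 with HSC share libraries and are not independent of each other.

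**Figure D4:**
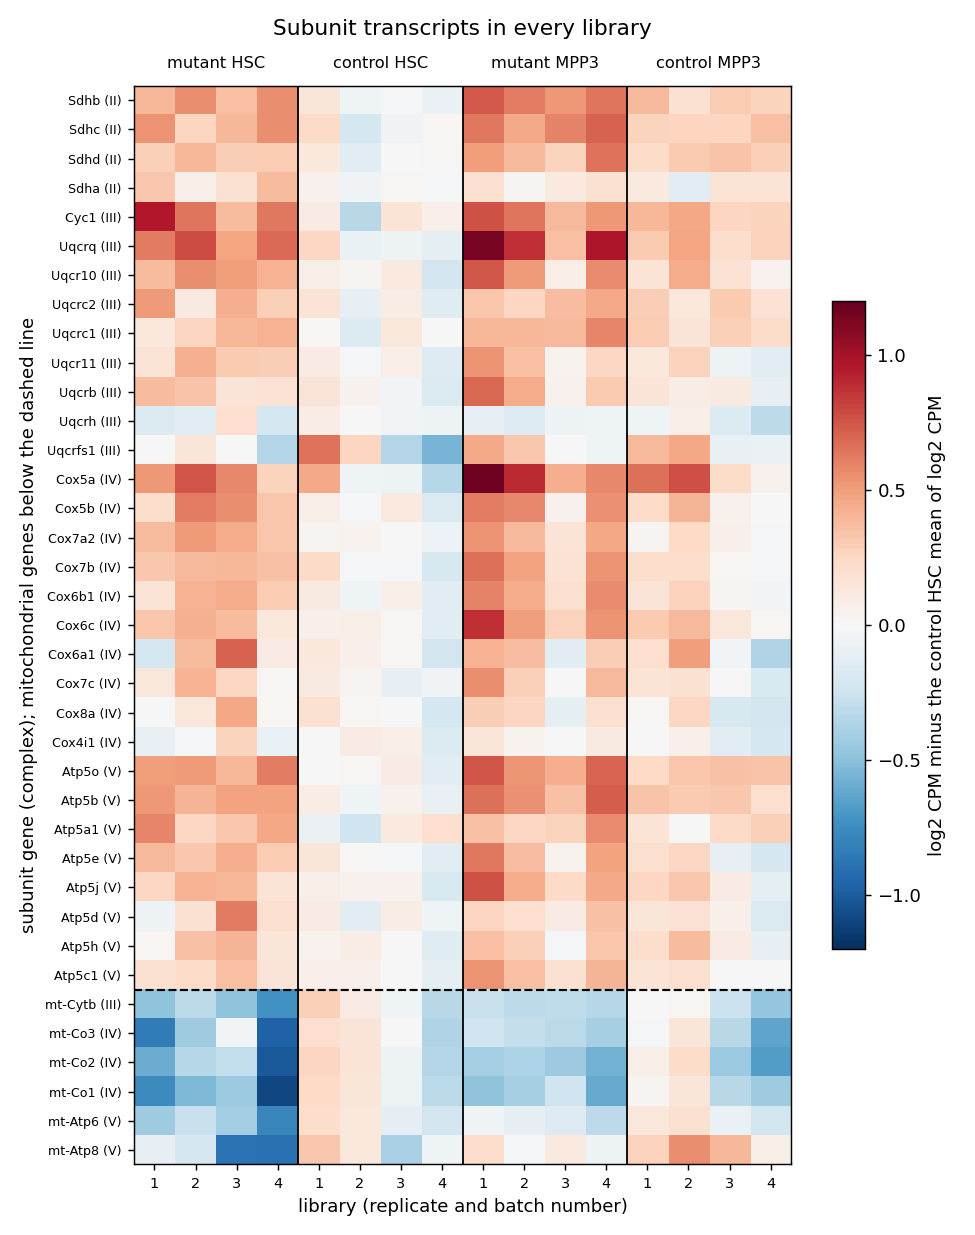
Log2 CPM of each subunit gene in each of 16 libraries, minus the mean of log2 CPM in control HSC, with the complex in brackets; mitochondrial genes are below the dashed line. Red is above and blue below the control HSC mean. Most nuclear rows are red in mutant HSC and mutant MPP3, and the mitochondrial rows are darkest blue in mutant HSC replicate 4.

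Other genes of these complexes and of their upkeep were looked at in the same fits. Of 16 tested further subunits and partners of complexes II to V, 3 rose and 0 fell in mutant HSC (4.56% of all genes rose; median 0.36), 0 passed in mutant MPP3 against control MPP3, and 4 rose in control MPP3 against control HSC (6.67% of all genes rose). The 3 were Cycs, cytochrome c itself (0.83 ± 0.19, adjusted p = 0.0131), Atpif1, the inhibitor that blocks ATP synthase from running backwards (0.35 ± 0.09, adjusted p = 0.0297), and Atp5g1, a gene of the rotating c ring (0.38 ± 0.11, adjusted p = 0.0464). Cycs averaged 123 ± 27.1 CPM in mutant HSC and 69.0 ± 12.2 CPM in control HSC (SD, n = 4 libraries each). The tissue-restricted forms Cox8b and Cox8c were listed at 0 in all groups.

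Of 34 tested assembly factors, 1 rose in mutant HSC, where 4.56% of all genes did. It was Atpaf2, which helps build the catalytic head of ATP synthase (0.45 ± 0.11, adjusted p = 0.0187). None fell, and the median was -0.06, that of all genes. The next smallest p-values were those of Uqcc2 of complex III (0.37 ± 0.12, adjusted p = 0.0592) and Taco1, the translational activator of mt-Co1 (0.60 ± 0.23, adjusted p = 0.129), neither of which passed. None of 25 tested genes for transcription, processing and copying of mitochondrial DNA passed (median 0.10), with Hsd17b10, a subunit of mitochondrial RNase P, at -0.29 ± 0.10, adjusted p = 0.0705. Slirp, which stabilises mitochondrial messenger RNAs, and Fastkd3 were next at 0.28 ± 0.11, adjusted p = 0.144 and at 0.58 ± 0.24, adjusted p = 0.156. None of 10 regulators of respiratory genes passed either (median 0.08), with Myc at -0.53 ± 0.20, adjusted p = 0.117, Sp1 at -0.37 ± 0.14, adjusted p = 0.118 and Ppargc1a at -1.18 ± 0.61, adjusted p = 0.276.

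The 7 mitochondrial genes of complex I, which share the chromosome with the 6 members, had 3 falls and no rise in mutant HSC (2.74% of all genes fell; median -0.64). These were mt-Nd6, read from the opposite strand (-0.71 ± 0.15, adjusted p = 0.00815), mt-Nd5 (-0.70 ± 0.15, adjusted p = 0.00898) and mt-Nd4 (-0.64 ± 0.15, adjusted p = 0.0181). Without a stated strand protocol, reads of mt-Nd6 cannot be told apart from those of any RNA of the other strand at its place. mt-Nd1 was at -0.13 ± 0.14, adjusted p = 0.668 and mt-Nd3 at -0.26 ± 0.28, adjusted p = 0.667, and neither passed. None of the 7 passed in mutant MPP3 against control MPP3 (median -0.34) or in control MPP3 against control HSC (0.07).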

How the data were processed

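RNA-seq libraries from sorted HSC and Fcgr-negative MPP3 were analysed from the deposited gene tables. Per the labels' protocols, 7000 to 10000 cells gave RNA for SMARTer cDNA libraries read in pairs. Per the submitters' processing notes, cutadapt 4.0, FastQC, HISAT2 and Salmon were used with GRCm38 (mm10), the transcript set and strand protocol being not given in the sources used here. Salmon's expected counts per gene, deposited by the authors without normalization, were rounded and tested. The authors' TPM values, scaled by effective length and library total, served for levels between genes. Effective lengths in bases, another deposited column per the file headers, entered 1 alternative.

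Of 31716 rows, 29806 gene rows were used, and 1910 transcript rows (0.697% to 0.796% of counts) were left out. Symbols and coordinates came from GENCODE M21. Totals of 33372210 to 41520158 counts make counting error small beside the spread between libraries. CPM are counts per 1000000 of the TMM-scaled library size. Genes were tested with edgeR 4.0.16 (robust glmQLFit, glmQLFTest, TMM, filterByExpr) in R 4.3.3, with 1 coefficient per group over 16 libraries, 14179 genes and 5 comparisons. A call is an adjusted p under 0.05 (Benjamini-Hochberg over all genes tested), and SE is that of the log2 fold change. The fits were tried on simulated counts with the same spread setting for every gene and no batch effect. That setting differs from these libraries, so the trial does not test the calls made here. DESeq2 1.42.0 and limma-voom (limma 3.58.1) were alternatives, with RLE size factors, no filter, length offsets, the batch block, groups fitted alone, mitochondrial, ribosomal RNA and haemoglobin genes out of totals, and each library left out. Chosen after seeing the data were the addition of Gm29216 to mt-Co1 and the joint removal of mutant HSC replicates 1 and 4.

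The labels name the replicate number as the batch, which pairs the libraries. Over 24 pairs of same-numbered libraries, deviations from the group means correlated with r of -0.03 to 0.16 across genes, 5 were over 0.1, and 17 were the best match of their number.

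The members, the gene and marker lists and the tests were chosen with earlier results of these data known. Values per library are given for the 6 mitochondrial genes and, per complex, for the 2 nuclear genes with the smallest p, the one with the largest p in mutant HSC against control HSC, and the one with the highest mean TPM. Cox6a1, Gm29216 and the MPP3 genes given per library were chosen after their values were seen.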

Additional observations from a re-analysis of the deposited data

Results flagged for a closer look

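In each of 108 groups of 4 libraries, covering the CPM of 24 genes (those chosen by the naming rule, Cox6a1 and Gm29216) and 3 summed levels, the highest and lowest library were compared with the others by Dixon's ratio at its 95% value, which chance exceeds in about 1 in 20 groups. A library stood apart in 6 groups. Cox4i1 had 743 CPM in mutant HSC replicate 3, against 581 to 607 CPM in the other mutant HSC libraries. Uqcrh had 227 CPM in the same library, against 169.9 to 179 CPM in the other mutant HSC libraries. Uqcrq had 98.7 CPM in control HSC replicate 1, against 77.1 to 79.7 CPM in the other control HSC libraries. Atp5o had 353 CPM in control MPP3 replicate 1, against 377 to 379.8 CPM in the other control MPP3 libraries. Sdhc had 149 CPM in control MPP3 replicate 4, against 138 to 139 CPM in the other control MPP3 libraries. The summed mitochondrial genes had 11268 CPM in mutant MPP3 replicate 4, against 12511 to 12694 CPM in the other mutant MPP3 libraries.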

How the results depend on the processing

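The count of members called in mutant HSC against control HSC was 15. It was 23 with DESeq2 and 4 without mutant HSC replicates 1 and 4 together, a setting chosen after seeing the data. DESeq2 called 6 members in mutant MPP3 against control MPP3, where edgeR called 0. Leaving out single libraries gave 8 to 20 calls in mutant HSC against control HSC, 0 to 8 in mutant MPP3 against control MPP3, 0 to 7 in control MPP3 against control HSC and 0 to 1 in mutant MPP3 against mutant HSC, the 1 without mutant HSC replicate 1. With the replicate block, 22 members were called in mutant HSC against control HSC, 7 in control MPP3 against control HSC (4 without the block) and 2 in mutant MPP3 against mutant HSC (0 without the block). No other call count moved under the block by over 1.5 times. Across all genes, mutant HSC against control HSC had 1035 calls and 1674 with DESeq2, and 266 without both mutant HSC libraries. Mutant MPP3 against control MPP3 had 9 calls, 388 with DESeq2, 82 with the block and 209 without mutant MPP3 replicate 3. The test between the cell types had 6 calls, 77 with DESeq2 and 1 with the block.

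Over all 37 genes and 5 comparisons, the sign turned under at least 1 alternative for 46 of 185 fold changes, of which 0 were called. Of the 36 fold changes of genes chosen by the naming rule or called, 4 turned. In mutant HSC against control HSC, Cox4i1 ranged from -0.0335 (without mutant HSC replicate 3) to 0.0830 (without mutant HSC replicate 4) on the log2 scale, and was also below 0 without control HSC replicate 4 (-0.0305). Uqcrfs1 ranged from -0.28 (without control HSC replicate 4) to 0.17 (without control HSC replicate 1), and was 0.0018 without mutant HSC replicate 4. In mutant MPP3 against mutant HSC, Cyc1 ranged from -0.18 (without mutant HSC replicate 3) to 0.0299 (without mutant HSC replicate 1) and was 0.0683 without both mutant HSC libraries, where Sdha was 0.00428. The cause was not tested. RLE size factors, effective-length offsets and totals without mitochondrial, ribosomal RNA and haemoglobin genes lost and gained no call among the 37 genes in mutant HSC against control HSC. The summed levels and their ratio moved by less than 1 SD under every alternative run.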
